A study of Homo sapiens with 6 samples.

Results

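The peaks described here lie inside or within 50 kb of 8 genes of the primitive streak and early mesoderm, TBXT, MIXL1, EOMES, GSC, MESP1, MESP2, TBX6 and HAND2. Gene positions were those of GENCODE 44 on hg38, and 108 of the 171517 peaks in the deposited table met the rule. The number of peaks per gene was 7 for TBXT, 12 for MIXL1, 18 for EOMES, 10 for GSC, 13 for MESP1, 15 for MESP2, 26 for TBX6 and 20 for HAND2. MESP1 and MESP2 are neighbours and shared 13 peaks. Of the 108 peaks, 25 were centred no more than 1 kb from a start of a listed gene and are called promoter peaks, 22 lay within 1 kb of a start of another protein-coding gene, and the remaining 61 are called distal.

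The primitive streak is the structure through which epiblast cells leave the epithelium at gastrulation to form mesoderm and definitive endoderm. NODAL, WNT and BMP signals induce it, and T-box and homeobox factors such as TBXT, EOMES and MIXL1 carry out the response. Naive pluripotent cells model an earlier stage, and streak genes are known as silent or weakly expressed in them. Many developmental genes nevertheless keep accessible, CpG-rich promoters in pluripotent cells, so that an open promoter is not a measure of transcription.

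The cells were of the established line H9, derived from a human embryo, kept as naive embryonic stem (nES) cells in tt2iLGö medium, with the mouse feeder cells depleted before collection. Cell-permeable dimethyl α-ketoglutarate (dm-αKG) was given at 4 mM for 24 h to the cells of 3 libraries, and the 3 control libraries carry the label DMSO, where the study's methods give 0 mM. Accessibility was measured by ATAC-seq, in which a transposase inserts adapters into open chromatin, and each value is the number of reads counted in a peak. In such bulk samples, fewer cells with an open site and less opening per cell cannot be told apart. The libraries held between 13025674 and 26828622 counts in peaks, and the study's methods call the 3 libraries of each treatment biological replicates of 1 experiment. Promoters of 11 naive pluripotency markers had a median accessibility per 200 bp at the 62.5th percentile of all genes with a promoter peak. The corresponding medians were 23.5 for 8 primed, 36.4 for 7 trophoblast, 25.6 for 6 primitive endoderm and 5.89 for 5 amnion and mesenchyme markers. DPPA3, VGLL1, APOA1 and COL3A1 had no promoter peak. The summed promoter counts of the naive markers ranged from 8610 to 8773 in control and from 8235 to 8855 with dm-αKG, and those of the trophoblast markers from 2510 to 2802 and from 2777 to 2979. The distal sums of the same markers stand beside those of the 8 genes below.

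The sequences of 4 peaks and of 1 short site are given first, since the results below refer to them. They were read from hg38 on the plus strand. Capitals mark exact matches, on either strand, to short consensus sequences of FOXH1 (TGTGGATT), which carries NODAL signals to streak genes, TCF/LEF (CTTTGAT), the factors of WNT signalling, and AP-1 (TGANTCA). A further 5 consensus sequences were searched and have no match in these stretches. The peak just upstream of an annotated TBXT start and the peak upstream of MIXL1 represent promoters that were open in both treatments.
TBXT promoter, chr6:166167862-166168070: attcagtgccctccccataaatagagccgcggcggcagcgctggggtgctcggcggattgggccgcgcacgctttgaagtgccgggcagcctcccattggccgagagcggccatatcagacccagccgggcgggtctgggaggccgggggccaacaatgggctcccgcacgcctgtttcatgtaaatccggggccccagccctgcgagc
MIXL1 promoter, chr1:226223260-226223472: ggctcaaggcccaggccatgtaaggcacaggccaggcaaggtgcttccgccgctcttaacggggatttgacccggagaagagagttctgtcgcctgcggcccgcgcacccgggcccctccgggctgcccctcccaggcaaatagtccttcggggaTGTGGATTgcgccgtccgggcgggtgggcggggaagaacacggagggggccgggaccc
The distal peak upstream of EOMES and the short site within the peak upstream of TBX6 belong to the clearest losses near their genes, and the site is limited to 27 bases because its peak lies in a 3′ UTR.
EOMES upstream, chr3:27728520-27728720: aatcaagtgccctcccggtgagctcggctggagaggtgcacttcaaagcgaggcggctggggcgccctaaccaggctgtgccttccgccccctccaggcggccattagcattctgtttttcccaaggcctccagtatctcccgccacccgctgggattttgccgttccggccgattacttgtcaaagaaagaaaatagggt
TBX6 upstream site, chr16:30092717-30092743: cagccgttgtCTTTGATcatgtggttg
The last sequence is the weak distal peak of TBXT with the highest fitted log2 fold change among all 108.
TBXT distal, chr6:166197434-166197633: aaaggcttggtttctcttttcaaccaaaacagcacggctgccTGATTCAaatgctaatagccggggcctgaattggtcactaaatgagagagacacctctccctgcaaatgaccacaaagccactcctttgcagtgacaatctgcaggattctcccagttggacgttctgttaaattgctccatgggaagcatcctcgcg

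In the control libraries, the promoters of the 8 genes spanned most of the range of accessibility found in nES cells. Values here are normalized counts per 200 bp of promoter peaks in control (mean ± SD, n = 3), set against 16275 protein-coding genes with a promoter peak, and ± stands for the SD over 3 libraries in the rest of the text too. TBX6 was the highest at 440.2 ± 18.9, at percentile 94.8. MESP1 followed at 149 ± 9.84, near the middle of all genes at percentile 52.0. TBXT at 125 ± 6.18 and MIXL1 at 123 ± 6.35 had overlapping ranges, as did EOMES at 94.3 ± 7.38 and MESP2 at 93.2 ± 8.27. GSC stood at 73 ± 5.13. HAND2 was the lowest at 39 ± 3.1, at percentile 5.04. The control ranges of the other neighbours in this order did not overlap. With dm-αKG the same quantity was 403 ± 14.4 for TBX6 and 44.7 ± 3.45 for HAND2, which remained the highest and the lowest of the 8.

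**Figure D1:**
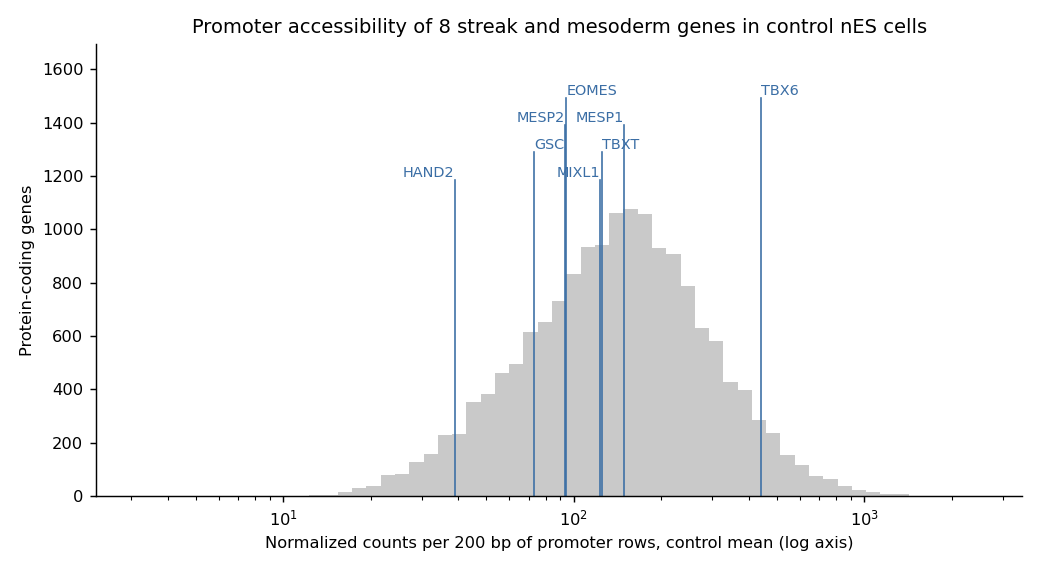
Histogram of promoter accessibility in control nES cells, as normalized counts per 200 bp of promoter peaks (horizontal, log axis), over 16275 protein-coding genes (vertical, number of genes). Vertical lines mark the control means of the 8 genes, from HAND2 at 39 to TBX6 at 440.2, and line heights carry no value.

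The promoter peaks of the 8 genes were rich in CpG, with a median GC content of 71% and a median CpG observed-to-expected ratio of 0.81, against 66% and 0.732 over all 50907 peaks within 1 kb of a protein-coding start. The 61 distal peaks had medians of 58% and 0.365, against 52.5% and 0.249 over all 120610 peaks farther away. A peak was assigned to each of the authors' peak lists that had a summit inside it. By this rule, 86 of the 108 peaks (79.6%) were in the lists of both treatments, against 71.4% of all peaks. A further 7 were in the control list only (6.48%, against 15.4% of all peaks) and 15 in the dm-αKG list only (13.9%, against 13.2%). All 18 EOMES peaks were in both lists. The peaks in the dm-αKG list alone were 6 of the 20 of HAND2, among them both of its promoter peaks, 3 of the 7 of TBXT, 3 of the 10 of GSC, 2 that MESP1 and MESP2 share and 1 of TBX6. A peak held by 1 list alone entered the table only through that treatment. A difference in that direction is then no independent support for a change.

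Across the 108 peaks, dm-αKG changed accessibility at few sites. In edgeR's quasi-likelihood test over all 171517 peaks, 1 was called less accessible and 0 more accessible at the study's thresholds, which are a Benjamini-Hochberg adjusted p below 0.01 together with a log2 fold change beyond 1 in either direction. Over the whole table, 1.96% of peaks were called less and 0.782% more accessible. By the adjusted p alone, at 0.05, 9 of the 108 were lower (8.33%) and 4 higher (3.70%), against 10.5% and 7.43% of all peaks. Both shares lay below those of the table. In 15 peaks all 3 dm-αKG values lay below all 3 control values (13.9%) and in 9 they lay above (8.33%), against 16.9% and 15.5% of all peaks. DESeq2 found 1 peak less and 0 more accessible at the same thresholds. The median log2 fold change was 0.0049, against 0.011 over all peaks.

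The peaks were also counted by class. Of the 25 promoter peaks, 1 was lower and 0 were higher by the adjusted p, against 3.86% lower and 10.4% higher among all peaks within 1 kb of a protein-coding start. Of the 61 distal peaks, 6 were lower and 0 higher, against 13.3% and 6.17% of all peaks farther away. Of the 22 peaks at promoters of neighbouring genes, 2 were lower (9.09%) and 4 higher (18.2%), and all 6 were in the TBX6 window. The shares among all peaks within 1 kb of a protein-coding start were again 3.86% and 10.4%. Of the 13 peaks past the adjusted p, 10 lay in the TBX6 window, 2 in that of EOMES and 1 beside MESP2. No peak in the windows of TBXT, MIXL1, GSC or HAND2 passed.

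**Figure D2:**
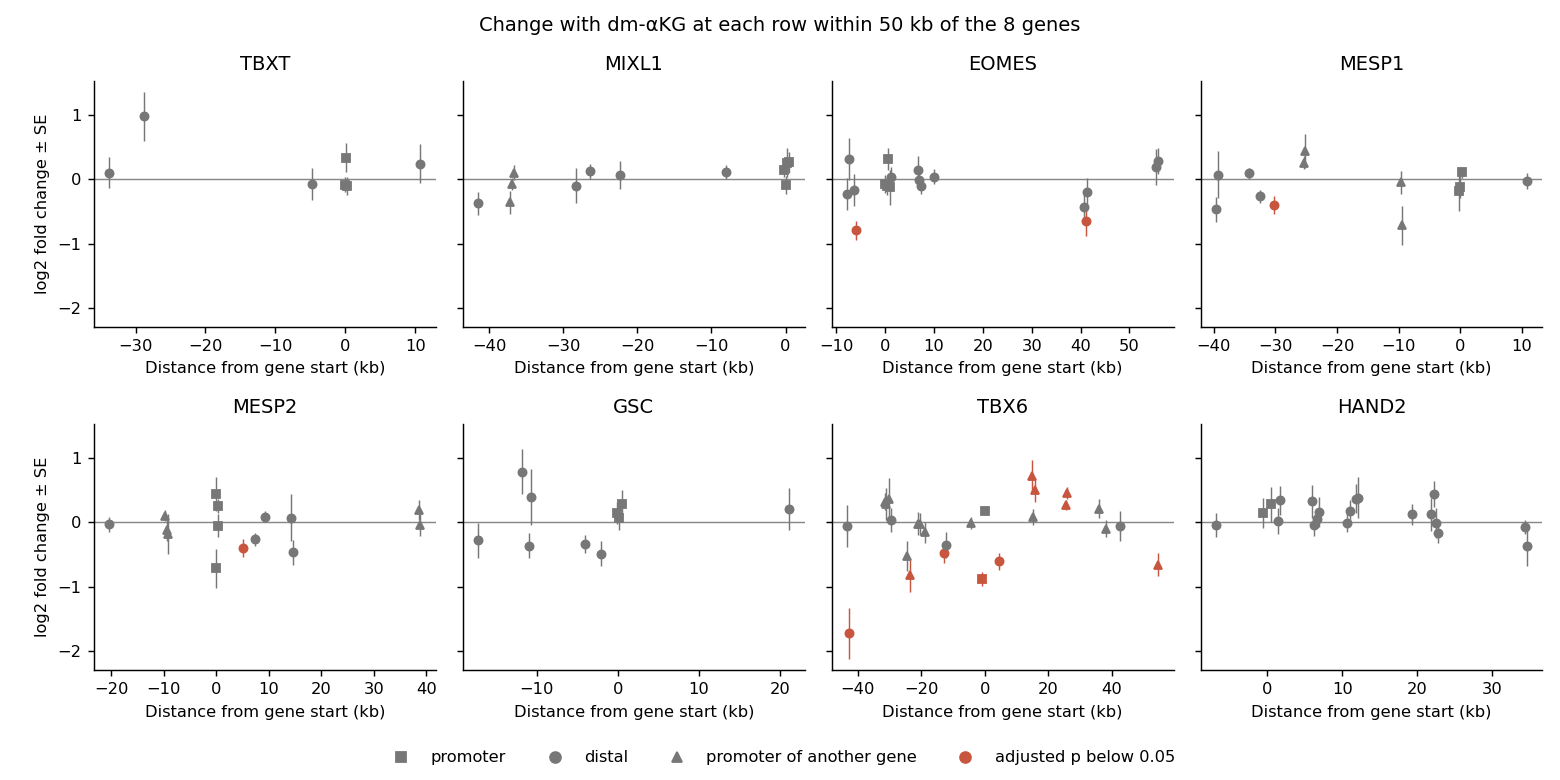
Log2 fold change with dm-αKG (vertical, with SE) of each peak against its distance from the gene's nearest transcript start in kb (horizontal, positive downstream), 1 panel per gene. Squares are promoter peaks, circles distal peaks and triangles promoters of other genes, with orange for an adjusted p below 0.05. The panels of TBXT, MIXL1, GSC and HAND2 hold no orange point.

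TBXT (brachyury), the T-box factor that marks the streak and the notochord, lies on chromosome 6 from 166157656 to 166168700, minus strand. Its strongest peak, whose sequence is given above, lies inside these bounds, centred 115 bp upstream of the nearest annotated start. It overlaps an exon of the noncoding RNA gene LNCDAT. It gave normalized counts of 189, 196 and 200.4 in the control libraries and 195, 182 and 169 in the dm-αKG libraries (log2 fold change -0.085, SE 0.12, adjusted p = 0.676), and the treatments overlapped. The neighbouring promoter peak 284 bp downstream of a start, in the 5′ UTR, gave 139.5, 148 and 152 in the control libraries and 145, 121 and 141 in the dm-αKG libraries (log2 fold change -0.10, SE 0.14, adjusted p = 0.665). The third promoter peak, also in the 5′ UTR, was weaker, with 46.3 ± 7.05 in control and 58.5 ± 6.9 with dm-αKG, and was found in the dm-αKG list alone. The distal peak 28.8 kb upstream of TBXT held an AP-1 match and was in the dm-αKG list alone. It gave 8.05, 14 and 21.9 in the control libraries and 18.6, 42.3 and 25.4 in the dm-αKG libraries. The highest control library lay above the lowest dm-αKG library, and the difference did not pass (log2 fold change 0.97, SE 0.38, adjusted p = 0.0584). It passed with loess offsets (adjusted p = 0.0432), with GC-content offsets (adjusted p = 0.0389) and without control replicate 3 (adjusted p = 0.0263) or dm-αKG replicate 1 (adjusted p = 0.0287).

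MIXL1, a homeobox factor of the streak and of mesendoderm, lies on chromosome 1 from 226223618 to 226227060, plus strand. The peak centred 252 bp upstream of its start, the only 1 of the 108 with a FOXH1 match, gave 198, 221 and 196 in the control libraries and 231, 212 and 238 in the dm-αKG libraries (log2 fold change 0.14, SE 0.11, adjusted p = 0.409). The peak over the start, in the 5′ UTR, gave 154, 155 and 147 in the control libraries and 131, 132 and 174 in the dm-αKG libraries (log2 fold change -0.087, SE 0.14, adjusted p = 0.716). Both sets of values overlapped between treatments. An intronic peak 485 bp downstream was higher in every dm-αKG library, by a small margin between the closest values, without passing. It gave 105, 106.9 and 97.2 in the control libraries and 115, 150.1 and 107.8 in the dm-αKG libraries (log2 fold change 0.26, SE 0.16, adjusted p = 0.26). The smallest p in the window belonged to a peak in an intron of the neighbouring gene ACBD3, 41.4 kb upstream (93.5 ± 17.7 in control and 73.4 ± 10.5 with dm-αKG, adjusted p = 0.147).

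EOMES, a T-box factor of the streak, of definitive endoderm and of cardiac mesoderm, lies on chromosome 3 from 27715949 to 27722711, minus strand. The peak over its start, in the 5′ UTR, gave 167, 156 and 134 in the control libraries and 123, 162 and 160.2 in the dm-αKG libraries (log2 fold change -0.075, SE 0.14, adjusted p = 0.758), and the other 3 promoter peaks had log2 fold changes between -0.13 and 0.31. The clearest loss at this gene was distal, 5.9 kb upstream, at the intergenic peak printed above. Its normalized counts were 186, 189 and 169 in the control libraries and 91.8, 132 and 94.3 in the dm-αKG libraries. All 3 dm-αKG values lay below the lowest control value (log2 fold change -0.80, SE 0.14, adjusted p = 1.5e-05), and the adjusted p was 5.57e-06 to 0.00269 when each library was left out in turn. None of the 8 consensus sequences matched in it. Its neighbour 6.26 kb upstream gave 42.5 ± 9.54 in control and 38 ± 1.23 with dm-αKG and did not pass (log2 fold change -0.17, SE 0.25, adjusted p = 0.697). A second loss lay 41.0 kb downstream of the start, in a group of 3 adjacent peaks. The central one, from 27681193 to 27681401, gave 64.4, 81.4 and 59.5 in the control libraries and 41.6, 30.8 and 61.4 in the dm-αKG libraries, with the treatments overlapping (log2 fold change -0.66, SE 0.22, adjusted p = 0.0295). This call was lost with DESeq2 and GC-content offsets and without control replicate 1 or 2 or dm-αKG replicate 1 or 2 (adjusted p over the left-out libraries 0.00436 to 0.211). The strongest peak of the window, 7.0 kb downstream of the start, held 339.6 ± 10.4 in control and 340.3 ± 33.4 with dm-αKG, with a log2 fold change of -0.0078.

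GSC (goosecoid), a homeobox factor of the organizer region, lies on chromosome 14 from 94768223 to 94770113, minus strand. Its 3 promoter peaks had log2 fold changes from 0.07 to 0.28. The strongest of them, 94 bp upstream of the start, gave 94.8, 97.8 and 108 in the control libraries and 96.1, 100.1 and 142 in the dm-αKG libraries (log2 fold change 0.14, SE 0.17, adjusted p = 0.592). Upstream of the gene, 3 distal peaks were lower in every dm-αKG library without passing. The peak 2.1 kb upstream, in an exon of a noncoding RNA gene, gave 90.3, 74 and 83.8 in the control libraries and 51.6, 68 and 59.9 in the dm-αKG libraries (log2 fold change -0.49, SE 0.20, adjusted p = 0.0708). The peak 4.0 kb upstream, in an exon of the same noncoding gene, gave 165, 159 and 172 in the control libraries and 143, 122 and 124 in the dm-αKG libraries (log2 fold change -0.33, SE 0.14, adjusted p = 0.0757). The peak 11.0 kb upstream gave 81.4 ± 10.7 in control and 62.7 ± 3.55 with dm-αKG (log2 fold change -0.37, SE 0.19, adjusted p = 0.184). A weak peak 11.8 kb upstream went the other way, with 16.1, 19.7 and 13.4 in the control libraries and 22.9, 43.6 and 21 in the dm-αKG libraries (log2 fold change 0.78, SE 0.35, adjusted p = 0.109). This weak peak was in the dm-αKG list alone.

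MESP1 and MESP2 are neighbouring basic helix-loop-helix factors, the first known for cardiac mesoderm and the second for the segmentation of somites. MESP1 lies on chromosome 15 from 89749875 to 89751249, minus strand, and MESP2 on chromosome 15 from 89760591 to 89778754, plus strand. The strongest MESP1 promoter peak, in its first exon 267 bp from the start, gave 315, 333 and 344 in the control libraries and 354, 359 and 350.3 in the dm-αKG libraries. Every dm-αKG library lay above every control library by a small margin (log2 fold change 0.10, SE 0.091, adjusted p = 0.461). MESP2 has annotated starts at both ends of its locus. At the upstream one, the peak 51 bp from the start gave 33.1, 37 and 43.7 in the control libraries and 26.5, 15.4 and 25.4 in the dm-αKG libraries (log2 fold change -0.72, SE 0.30, adjusted p = 0.085), lower in every dm-αKG library. At the downstream one, the exonic peak 334 bp from the start gave 277, 205 and 222 in the control libraries and 269, 285 and 293 in the dm-αKG libraries (log2 fold change 0.26, SE 0.11, adjusted p = 0.0822), and the treatments overlapped. Neither passed, the second did without control replicate 1 (adjusted p = 0.0181), and the difference between both starts was not tested. The intergenic peak 5.1 kb downstream of the second start, from 89781308 to 89781515, gave 154, 143.85 and 179 in the control libraries and 115, 104 and 143.69 in the dm-αKG libraries. The treatments did not overlap, though their closest values hardly differed, and the loss passed (log2 fold change -0.40, SE 0.14, adjusted p = 0.0416). That call was lost with DESeq2, total-count scaling and GC-content offsets, and without control replicate 1 or 3 or dm-αKG replicate 1 or 2 (adjusted p over the left-out libraries 0.00984 to 0.188). The next peak, 7.4 kb downstream and with a TCF/LEF match, gave 322, 309 and 319 in the control libraries and 249.6, 296 and 248 in the dm-αKG libraries (log2 fold change -0.26, SE 0.099, adjusted p = 0.0508). The strongest peak of the locus, in an intron of ANPEP, gave 455 ± 9.26 in control and 486 ± 55.5 with dm-αKG and did not pass (log2 fold change 0.088, SE 0.082, adjusted p = 0.497).

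TBX6, the T-box factor of paraxial mesoderm, lies on chromosome 16 from 30085793 to 30091924, minus strand, in a gene-dense stretch where only 3 of its 26 peaks had a TBX6 start as the nearest protein-coding start. Its promoter held 2 peaks. The one over the start was the most accessible of the 108 per 200 bp in control, with counts of 587, 557 and 598 in the control libraries and 638, 662 and 675 in the dm-αKG libraries. All dm-αKG values lay above the controls, and the difference did not pass (log2 fold change 0.18, SE 0.073, adjusted p = 0.0733) except with total-count scaling (adjusted p = 0.0413) or loess offsets (adjusted p = 0.0461). The other, 776 bp upstream and in the 3′ UTR of the neighbour YPEL3, had the smallest p of all 108. Its counts were 323, 337 and 372 in the control libraries and 174, 203 and 189 in the dm-αKG libraries, and each dm-αKG library lay far below each control library (log2 fold change -0.88, SE 0.11, adjusted p = 2.36e-10). It holds the TCF/LEF match printed above. The adjusted p was 1.87e-10 to 4.73e-07 over the fits without 1 library. A further loss lay in the 3′ UTR of TBX6 itself, 4.5 kb downstream of the start, at a peak with an AP-1 match, which gave 185, 204 and 229.6 in the control libraries and 146, 127 and 127 in the dm-αKG libraries (log2 fold change -0.60, SE 0.13, adjusted p = 0.000312).

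The only call at the study's thresholds was an intergenic peak 42.9 kb upstream of TBX6 and nearer to MAPK3, which was in the control list alone. It was a weak peak, with 27.7, 34.5 and 24.3 in the control libraries and 9.32, 8.98 and 7.48 in the dm-αKG libraries (log2 fold change -1.72, SE 0.39, adjusted p = 0.000656). The treatments did not overlap. The call was lost without control replicate 2 (adjusted p = 0.0128), and a filter of at least 10 counts in every library removed the peak before testing. Its neighbour 43.3 kb upstream gave 25.7 ± 5.48 in control and 25.2 ± 4.94 with dm-αKG and a log2 fold change of -0.06. At noncoding or neighbouring genes, the peak 12.8 kb upstream in YPEL3-DT fell (134 ± 9.15 in control and 97 ± 8.4 with dm-αKG, log2 fold change -0.48, SE 0.16, adjusted p = 0.0203), as did a peak in MAPK3, the gene of the kinase ERK1 (54.7 ± 10.3 in control and 32.2 ± 11.8 with dm-αKG, log2 fold change -0.82, SE 0.26, adjusted p = 0.0184), and a peak in TLCD3B (123 ± 21 in control and 79.6 ± 23.6 with dm-αKG, log2 fold change -0.65, SE 0.18, adjusted p = 0.00453). The treatments overlapped at the MAPK3 and TLCD3B peaks and did not at the YPEL3-DT peak. The MAPK3 peak holds a T-box match and was in the control list alone. DESeq2 lost the first and the second of these. The first was also lost without control replicate 2 or dm-αKG replicate 1, the second also without control replicate 3, and the third without dm-αKG replicate 1 (adjusted p up to 0.126, 0.275 and 0.155, all without dm-αKG replicate 1). Without dm-αKG replicate 2, the MAPK3 peak was itself called (log2 fold change -1.12).

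The 4 peaks that rose lay at the promoters of ALDOA and PPP4C, in the TBX6 window. At ALDOA, which encodes a glycolytic aldolase, the wider peak gave 335, 330.5 and 284 in the control libraries and 444, 426 and 436 in the dm-αKG libraries (log2 fold change 0.45, SE 0.088, adjusted p = 5.95e-05) and the stronger one 604, 592 and 515 in the control libraries and 667, 766 and 632 in the dm-αKG libraries (log2 fold change 0.26, SE 0.075, adjusted p = 0.00756), in both cases with no overlap. At PPP4C, which encodes a phosphatase subunit, the peaks gave 73.7 ± 15.2 in control and 103 ± 21.1 with dm-αKG (log2 fold change 0.50, SE 0.18, adjusted p = 0.0393) and 35.4 ± 9.32 in control and 55.7 ± 22.5 with dm-αKG (log2 fold change 0.71, SE 0.25, adjusted p = 0.0378), with overlap. The stronger ALDOA call was lost without control replicate 3 or dm-αKG replicate 2 (adjusted p over the left-out libraries 0.00162 to 0.14), and with GC-content offsets. The PPP4C calls were lost with DESeq2 and without dm-αKG replicate 1, and also without control replicates 1 or 3 for the first and without control replicate 2 or dm-αKG replicate 2 for the second, which GC-content offsets and the replicate block lost too, with adjusted p up to 0.428 and 0.244.

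**Figure D3:**
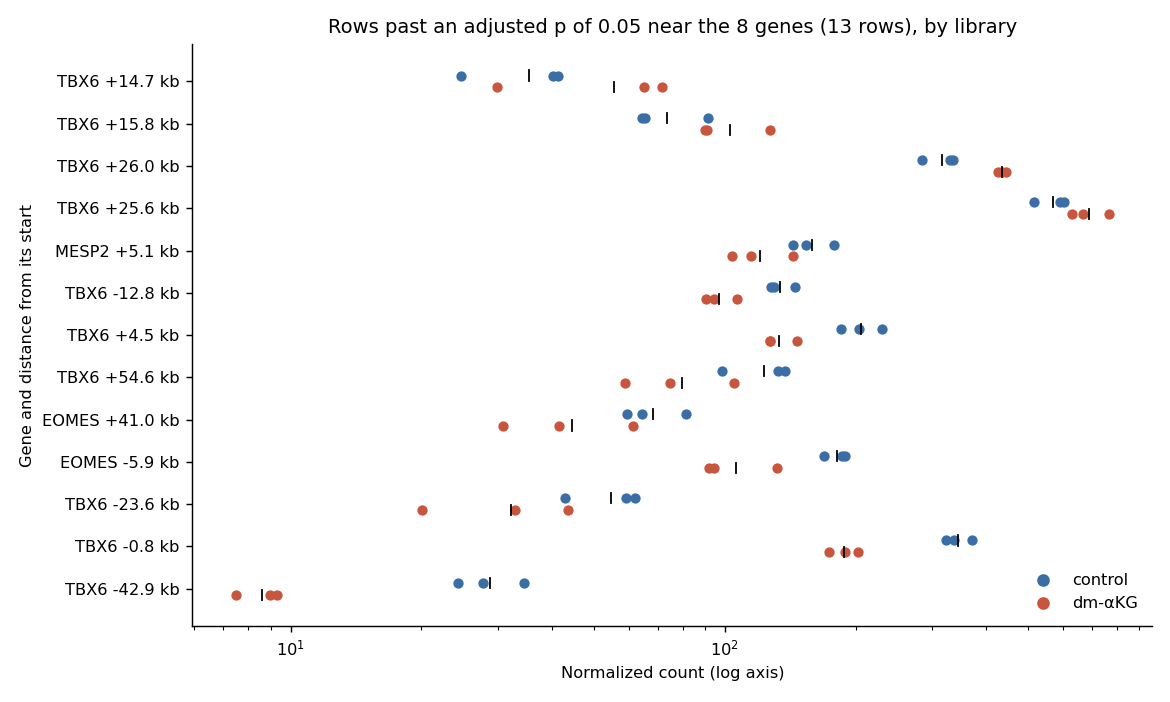
Normalized counts (horizontal, log axis) in each library at the 13 peaks past an adjusted p of 0.05, named by gene and distance from its start in kb and ordered by log2 fold change. Blue points are control and orange points dm-αKG libraries, and black ticks are means of 3. At the lowest line, 42.9 kb upstream of TBX6, the controls sit between 24.3 and 34.5 and the dm-αKG libraries between 7.48 and 9.32.

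HAND2, a basic helix-loop-helix factor of heart and limb mesoderm, lies on chromosome 4 from 173524969 to 173530229, minus strand. It had the weakest promoter of the 8, and the stronger of its promoter peaks, in the 5′ UTR 624 bp from a start, gave 48.3, 47.7 and 41.3 in the control libraries and 58.1, 48.7 and 43.4 in the dm-αKG libraries (log2 fold change 0.15, SE 0.23, adjusted p = 0.705). The other, 436 bp downstream, gave 35.8, 30.4 and 30.4 in the control libraries and 38, 41.1 and 38.9 in the dm-αKG libraries, higher in each dm-αKG library (log2 fold change 0.28, SE 0.27, adjusted p = 0.515). Both promoter peaks were in the dm-αKG list alone, so higher values there are no independent support for a change. Accessibility of the window lay mainly in 18 distal peaks, of which the strongest, 34.4 kb downstream of the start, held 248 ± 14 in control and 237 ± 23.7 with dm-αKG (log2 fold change -0.073, SE 0.11, adjusted p = 0.692). The smallest p was at a peak 22.2 kb downstream with a TEAD match, 45.6, 63.3 and 92.3 in the control libraries and 95.4, 61.6 and 109 in the dm-αKG libraries (log2 fold change 0.44, SE 0.20, adjusted p = 0.119), where the treatments overlapped. It passed without control replicate 3 (adjusted p = 0.0232) or dm-αKG replicate 2 (adjusted p = 0.0367), and was in the dm-αKG list alone.

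Counts were then summed per gene over promoter peaks, over distal peaks and over all peaks of the window, and each sum was tested over all protein-coding genes that had one. Of the 8 promoter sums, 0 passed an adjusted p of 0.05, against 4.69% of all 16275 genes lower and 19.8% higher. DESeq2 also found 0 of the 8, and by edgeR's unadjusted p only the TBX6 sum was below 0.05. The promoter sums of TBX6 were 909.6, 894 and 969 in the control libraries and 812, 865 and 864 in the dm-αKG libraries (log2 fold change -0.13, SE 0.061, adjusted p = 0.112), the net of its 2 promoter peaks, and that sum passed with GC-content offsets (log2 fold change -0.22, adjusted p = 0.00723). The promoter sums of MIXL1 were 512, 530.2 and 479 in the control libraries and 534, 549 and 576 in the dm-αKG libraries (log2 fold change 0.12, SE 0.078, adjusted p = 0.278). Those of the other 6 overlapped between treatments, with log2 fold changes of -0.036 for TBXT, -0.0045 for EOMES, 0.039 for MESP1, 0.14 for MESP2, 0.15 for GSC and 0.21 for HAND2. The HAND2 sum holds only peaks of the dm-αKG list alone, so its direction is no independent support for a change. The sign for EOMES flips with DESeq2 and total-count scaling and that for MESP1 with GC-content offsets. The median over the 8 was 0.08, as over all genes.

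Among distal sums, those of TBX6 and GSC fell and 0 of the 8 rose, against 26.8% lower and 11% higher of 19169 genes. The TBX6 distal sums were 562, 623 and 589 in the control libraries and 441, 454 and 443 in the dm-αKG libraries (log2 fold change -0.41, SE 0.079, adjusted p = 2.31e-05), with an adjusted p of 8.45e-06 to 0.00167 over the fits without 1 library. Of the 7 peaks in this sum, only that in the 3′ UTR of TBX6 had a TBX6 start as its nearest protein-coding start. The others lay nearest to starts of TLCD3B, GDPD3 or MAPK3, so the sum describes the window rather than TBX6 alone. The GSC distal sums were 404, 427 and 439.7 in the control libraries and 354, 375 and 349 in the dm-αKG libraries (log2 fold change -0.24, SE 0.089, adjusted p = 0.0285). Neither set overlapped. The GSC call was lost with DESeq2 and GC-content offsets and without control replicate 2 or 3 or dm-αKG replicate 1, with adjusted p up to 0.0935 for the last. The EOMES distal sums were 1585, 1516 and 1483 in the control libraries and 1369, 1330.3 and 1549 in the dm-αKG libraries (log2 fold change -0.12, SE 0.052, adjusted p = 0.0664), and passed with limma-voom (adjusted p = 0.0354) and without dm-αKG replicate 3 (adjusted p = 0.00276). MESP1 and MESP2 had the same distal peaks and so 1 value (log2 fold change -0.11, SE 0.056, adjusted p = 0.115), which also passed without dm-αKG replicate 3 (adjusted p = 0.0286). The distal sums of TBXT (log2 fold change 0.21, SE 0.15, adjusted p = 0.288), MIXL1 (log2 fold change 0.036, SE 0.076, adjusted p = 0.742) and HAND2 (log2 fold change 0.057, SE 0.049, adjusted p = 0.374) did not pass. The median over the 8 was -0.11, against -0.045 over all genes. The marker lists of cell types also differed in their distal sums. Those of the 12 naive markers, of which 6 were lower and 0 higher, added up to between 33205 and 33978 in control and between 30957 and 32087 with dm-αKG. The 8 primed markers, with 4 lower and 0 higher, held 6671 to 6820 and 5930 to 6189. The 8 trophoblast markers, with 1 lower and 3 higher, held 11140 to 11342 and 11813 to 12053, and the 7 primitive endoderm markers, with 0 lower and 1 higher, 7268 to 7524 and 7748 to 7902. None of these 4 sums overlapped between treatments, whereas the 5 amnion and mesenchyme markers with a distal sum did, with 1 lower and 0 higher. The part of these shifts in the distal results was not tested.

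**Figure D4:**
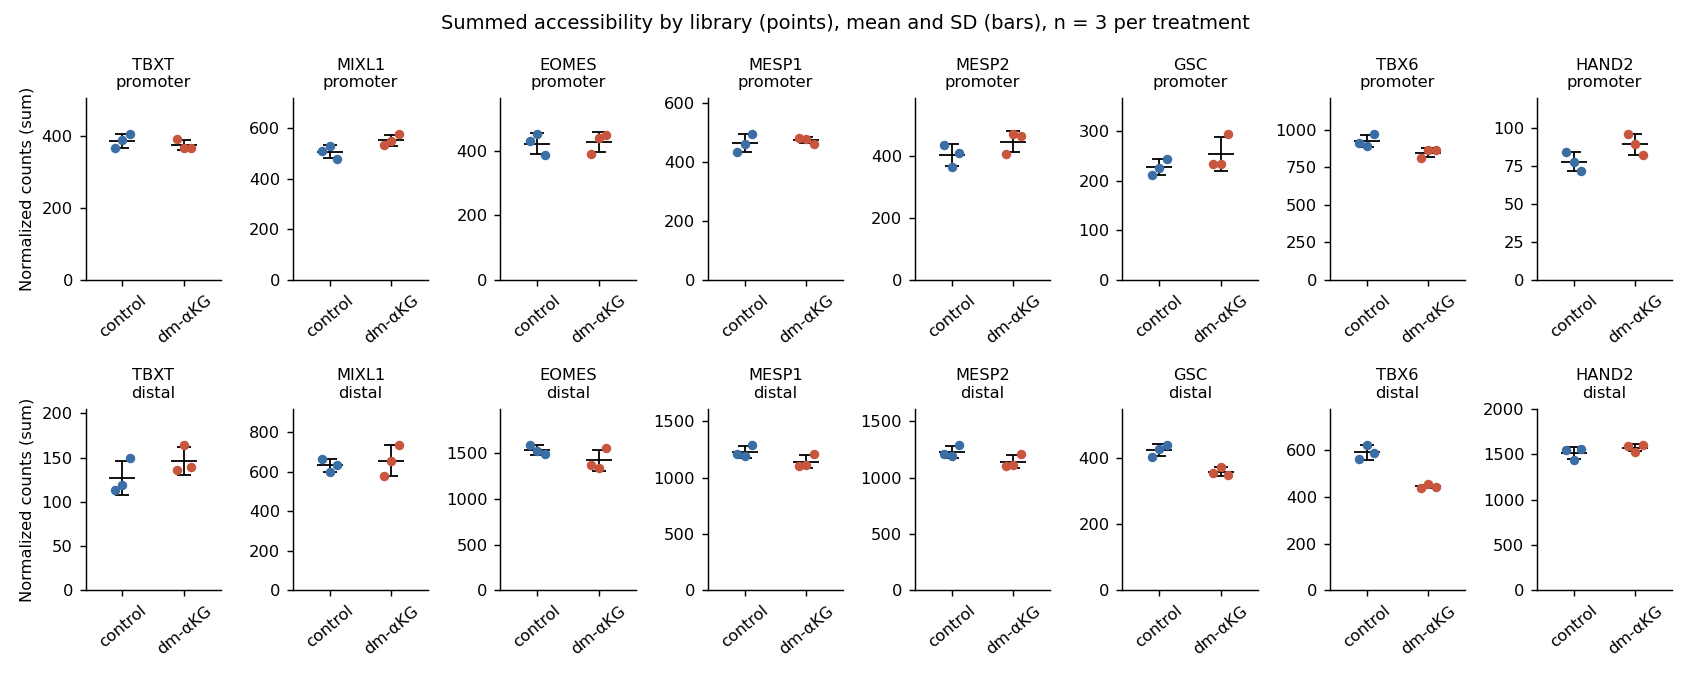
Summed normalized counts of promoter peaks (upper row) and distal peaks (lower row) for each gene, with 1 point per library, blue for control and orange for dm-αKG, and the mean with SD in black (n = 3). Each vertical axis starts at 0 and has its own scale, and the groups stand clearly apart in the distal panels of GSC and TBX6.

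Over the whole window, 0 of the 8 sums passed, against 14.8% lower and 22.6% higher of 19596 genes, and the log2 fold changes lay between -0.092 for EOMES and 0.065 for HAND2. DESeq2 also found 0, and 0 had an unadjusted p below 0.05 in edgeR's test. For TBX6, where losses and the gains at ALDOA and PPP4C add up, the window sum had a log2 fold change of 0.010, against -0.41 for its distal sum, and its sign flips with GC-content offsets.

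**Figure D5:**
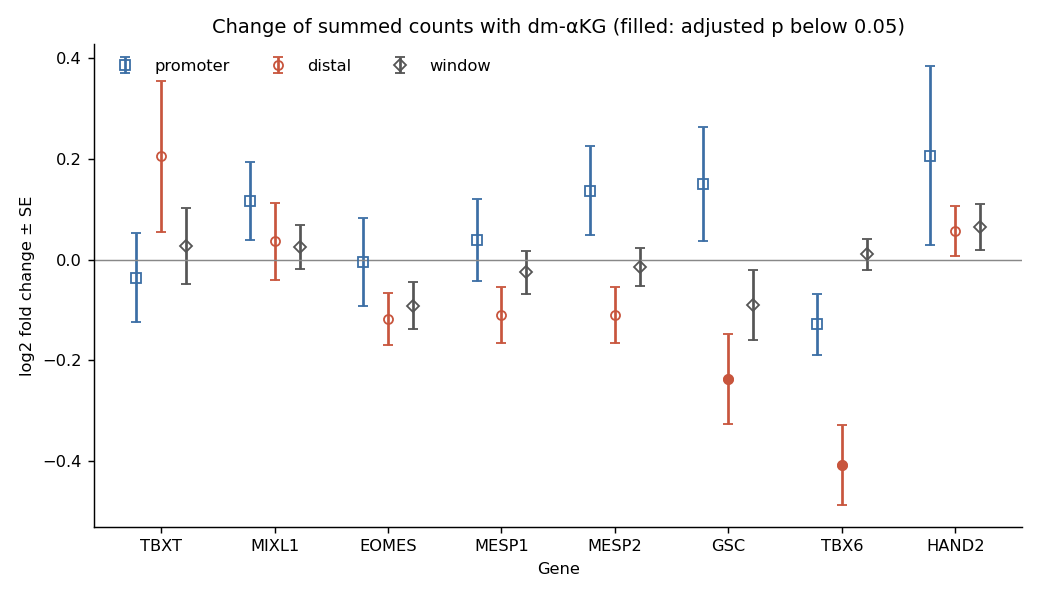
Log2 fold change with dm-αKG (vertical, with SE) of the promoter sum (blue squares), distal sum (orange circles) and window sum (grey diamonds) of each gene (horizontal). Filled symbols passed an adjusted p of 0.05, which was the case for the distal sums of GSC and TBX6 alone.

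Exact motif matches in the 108 peaks, within 200 bp around each centre, were few. The T-box core AGGTGTGA occurred in 3 peaks (2.78%, against 1.38% of all peaks), the TCF/LEF consensus in 5 (4.63% against 1.80%) and that of FOXH1 in 1 (0.926% against 0.736%). The OCT octamer ATGCAAAT, which binds the pluripotency factor OCT4, occurred in 0 of the 108, against 3918 of all 171517 peaks. That share is small, so few matches would be due among 108 peaks, and the absence was not tested. The GATA core AGATAA, bound by factors of endoderm and trophoblast, was found in 3 peaks (2.78% against 6.22%). Forkhead factors were represented by TGTTTAC, found in 2 peaks (1.85% against 2.85%). The consensus of AP-1 was in 4 peaks (3.70% against 6.33%). The TEAD consensus GGAATG, read by the nuclear partners of YAP, was the most frequent, in 12 peaks (11.1% against 14.6%). The 5 peaks with a TCF/LEF match were 1 at the MIXL1 start, 1 upstream of MESP1, 1 downstream of MESP2, the peak that fell upstream of TBX6 and 1 in GDPD3, with log2 fold changes of -0.09, -0.18, -0.26, -0.88 and -0.03. The 4 AP-1 peaks had 0.97 at TBXT, -0.21 at EOMES and -0.60 and -0.16 in the TBX6 window.

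Other genes of streak and mesoderm formation were summed in the same way, 45 genes in 5 lists. Of the 37 with a promoter sum, 3 were lower (8.11%) and 5 higher (13.5%), against 4.69% and 19.8% of all genes. Of the 43 with a distal sum, 8 were lower (18.6%) and 4 higher (9.30%), against 26.8% and 11%. The median log2 fold changes were 0.059 for promoter and -0.0090 for distal sums, against 0.08 and -0.045 over all genes, and 18 genes passed in 1 or both. The 10 named below, apart from WNT3, are those with the smallest p (adjusted p from 2.67e-10 to 0.00453). Among 10 signalling genes of the streak, distal sums fell at 5, among them those of the growth factors FGF4 (log2 fold change -0.35, SE 0.04), WNT8A (-0.31, SE 0.06) and BMP4 (-0.40, SE 0.08) and of LEFTY2, an inhibitor of NODAL (-0.24, SE 0.04), and rose at 1. Promoter sums fell at 1, FGF4 (-0.36, SE 0.09), and rose at 1, the ligand gene WNT3 (0.19, SE 0.06), named after its value was seen. Among 10 factors of the streak and node, promoter sums rose at 2, with CDX1, a homeobox factor, at 0.59 (SE 0.11), distal sums rose at 2, with LHX1, a factor of the organizer, at 0.55 (SE 0.10), and 0 fell. Among 10 genes of paraxial mesoderm, promoter sums rose at 2, the Notch pathway genes HES7 (0.71, SE 0.17) and DLL3 (0.34, SE 0.09), and distal sums fell at 2. Among 10 genes of lateral plate and cardiac mesoderm, promoter sums fell at 2, with the homeobox gene MEIS2 at -0.30 (SE 0.07), and distal sums fell at 1, HAND1 (-0.26, SE 0.05), the relative of HAND2, and rose at 1. Of 5 extraembryonic mesoderm and mesenchyme genes, 2 had a promoter sum and 3 a distal sum, and 0 passed.

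Of these 45 genes, the one whose log2 promoter counts followed a member most closely over the 6 libraries was RIPPLY2 for HAND2 (Pearson r = 0.90), DKK1 for MESP2 (r = 0.90), NOTO for MIXL1 (r = 0.86), TCF7 for GSC (r = 0.74), KDR for TBX6 (r = 0.74), MEIS2 for TBXT (r = 0.66), FOXA2 for MESP1 (r = 0.59) and NODAL for EOMES (r = 0.53). Each is the best of 37 candidates over libraries that share depth and treatment, so the values are a description only.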

How the data were processed

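The 6 libraries were grouped by the treatment in their labels. The authors demultiplexed reads with bcl2fastq 2.20.0.422 and ran the ENCODE ATAC-seq pipeline (Bowtie 2, hg38, MACS2) once per treatment. They deposited 1 list of reproducible peaks per treatment, with a score, a signal ratio (fold enrichment) and q-values as −log10. The lists were used here only for whether they have a summit inside a counted peak. The authors shortened peaks to 200 bp around the summit, merged both lists and deposited raw counts per merged peak from bedtools 2.28.0. The merging makes peaks of unequal width, so levels were compared per 200 bp.

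Counts of all peaks were tested with edgeR 4.0.16 in R 4.3.3 (TMM factors from 0.9914 to 1.014, quasi-likelihood test, treatment as the only term, Benjamini-Hochberg adjustment). Normalized counts are at the mean scaled library size, and SE is the size of the log2 fold change over the root of its F statistic. Gene sums used the same library sizes and factors. Distances run from the peak centre to the nearest start of the gene in GENCODE 44, which may differ from the study's annotation. DESeq2 1.42.0, which the study used, limma 3.58.1, RLE, total-count, loess and GC-content offsets, a filter of at least 10 counts in every library, a replicate block, left-out libraries, windows of 20 and 100 kb and 2 restrictions of the peaks were alternatives. Motifs and sequences were read with pysam 0.24.0, the sequence of 1 peak is not reported here, and the fits were tested on simulated data.

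The members, the lists and the rules were chosen with earlier results of these data known. Named were each gene's promoter peak of highest mean count, every peak with an adjusted p below 0.05 or, where a gene had none, its peak of smallest p, and the 10 other pathway genes with the smallest p. Further peaks named beside them were chosen after their values were seen. Replicates of a treatment differed by more than counting noise (chi-square per degree of freedom 1.80 to 2.16). Libraries with the same replicate number had nearly uncorrelated deviations from their treatment means (-0.016, -0.0009 and 0.013), so no block was used. Counting noise lowers such correlations, so they cannot show that no pairing exists.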

Additional observations from a re-analysis of the deposited data

How the results depend on the processing

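Over 49 single sums and peaks and their alternatives, 643 of 733 values kept direction and side of the threshold, 44 no longer passed, 18 newly passed and 28 changed sign, all 28 at results that did not pass in either fit. Depth bears on the weak peaks: the single call 42.9 kb upstream of TBX6 rests on under 10 counts in at least 1 library. With DESeq2, 5 peaks were lower and 2 higher by the adjusted p, and 1 distal sum passed. With at least 10 counts in every library, in windows of 20 kb, among peaks nearest to a listed gene and among peaks in both lists, 0 peaks were called less accessible. The 20 kb windows held 5 lower and 2 higher peaks, the peaks nearest to a listed gene 5 lower and 0 higher, and windows of 100 kb 2 called, 20 lower and 10 higher, with a median log2 fold change of 0.064. With GC-content offsets, with or without the replicate block, 1 promoter sum (TBX6) and 1 distal sum (TBX6) passed. The replicate block alone left 9 lower and 4 higher peaks, 1 call and 2 distal sums. It lost the call of the PPP4C peak 14.7 kb downstream of TBX6 (adjusted p = 0.0576) and added the TBXT peak 28.8 kb upstream (adjusted p = 0.0471). Replicate numbers were shared between the treatments, and whether libraries of the same number form pairs was not settled.

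Without 1 library at a time, 0 to 2 peaks were called less accessible, 5 to 10 were lower and 3 to 4 higher, the median log2 fold change was 0.00072 to 0.060, and 1 to 5 distal and 0 to 1 window sums passed. The most distal sums passed without dm-αKG replicate 3, when the EOMES window sum also passed, and the fewest lower peaks were left without dm-αKG replicate 1. 

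Log2 values that changed sign were those of the EOMES promoter sum with DESeq2 (0.0025), total counts (0.012) and the replicate block (0.00048), the MESP2 window sum with total counts (0.0016), and, with GC-content offsets and with these and the block, the MESP1 promoter sum (-0.064 and -0.059), the TBXT (-0.039 and -0.034), MIXL1 (-0.039 and -0.040) and TBX6 (-0.063 and -0.061) window sums and the HAND2 promoter peak (-0.014 and -0.026). Without 1 library, sums that changed sign ranged over -0.059 to 0.070 (EOMES promoter), -0.0029 to 0.083 (MESP1 promoter), -0.047 to 0.14 (MIXL1 distal), -0.014 to 0.078 (TBXT window), -0.0065 to 0.056 (MIXL1 window), -0.049 to 0.0057 (MESP1 window), -0.030 to 0.0082 (MESP2 window) and -0.0059 to 0.032 (TBX6 window), and peaks over -0.15 to 0.073 (EOMES start) and -0.029 to 0.27 (GSC start). The cause was not tested.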
